A study of Homo sapiens with 6 samples.

Results

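Stress granule core proteins are represented here by 10 genes: G3BP1, G3BP2, CAPRIN1, UBAP2L, TIA1, TIAL1, ATXN2, ATXN2L, PABPC1 and PABPC4. They were taken by symbol from the 18806 symbols of a human expression table, and all 10 were found in it. The choice was made with earlier results of these data known. Poly(A)+ RNA was sequenced from Mono-mac-6, an established human AML (acute myeloid leukemia) line of monocytic type with an MLL-AF9 fusion. The 3 groups, of 2 libraries each, had received sgDDX6.1 or sgDDX6.2, both guides against DDX6, or sgNS, the control guide. All 6 libraries came from 1 Cas9-expressing clone transduced with lentivirus and then kept for 1 to 2 weeks under hygromycin B at 200 µg/ml together with blasticidin at 10 µg/ml. Harvest is given as day 8 after infection, which the longer of these selection times would exceed. Values were TPM (RSEM's length-scaled transcript abundance), a level scaled by transcript length and to a fixed total per library, so read depth is unknown.

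Stress granules are cytoplasmic assemblies of mRNA, small ribosomal subunits and RNA-binding proteins that form when translation initiation is blocked. G3BP1 and G3BP2 bind RNA released from ribosomes and bring the granule together, with CAPRIN1 and UBAP2L as binding partners, while TIA1 and TIAL1 bind U-rich RNA, and the poly(A)-binding proteins coat mRNA tails. DDX6 is a DEAD-box helicase of processing bodies, granules of repressed mRNA that touch stress granules, and ataxin-2 and its paralog ataxin-2-like bind both DDX6 and poly(A)-binding protein.

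DDX6, the targeted gene, had 54.4 and 52.0 TPM with sgDDX6.1 and 52.3 and 53.5 TPM with sgDDX6.2, against 102 and 99.5 TPM with sgNS. All 4 sgDDX6 libraries thus lay below both sgNS libraries, as labelled, while the 2 guides overlapped and cannot be told apart by DDX6. DDX6 fell by 0.91 on the log2 scale over both guides (limma adjusted p = 4.61e-09), and protein was not measured in these files. Between 10794 and 11007 genes reached 1 TPM in a library, and replicates of a group correlated at 0.998 across genes on the log2 scale; genes are not independent replicates. Of the markers of the labelled cell type, LYZ ranged from 9531 to 14945 TPM, CD68 from 222 to 412 TPM and CD33 from 47.8 to 62.0 TPM over all libraries. Of the 9 myeloid markers, LYZ, CD68, CSF1R and CD4 were higher in all 4 sgDDX6 libraries than in both sgNS libraries, CD14, ITGAM, FCGR1A and MPO were lower, and CD33 overlapped. MPO had 28.99 to 41.5 TPM in the sgDDX6 libraries, against 79.7 and 86.7 TPM with sgNS, and FCGR1A 13.7 to 16.1 TPM, against 21.6 and 24.7 TPM. The 9 markers, mostly LYZ, summed to 14214 to 15442 TPM in the sgDDX6 libraries, against 9923 to 10414 TPM with sgNS, and the part of such shifts in the results was not tested. In bulk RNA, fewer cells of a type and less RNA per cell cannot be told apart. CD14 stayed between 0.37 and 1.36 TPM, and CD3E, MS4A1, GATA1 and HBB, which mark other blood lineages, were listed at 0 in every library. Nothing in the labels says that the 2 libraries of a group were separate cultures, so the p-values here rest on the spread between libraries, which may be technical.

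Over both DDX6 guides, mRNAs of ATXN2L, PABPC1, TIA1, ATXN2, PABPC4 and CAPRIN1 fell, and that of UBAP2L rose, while G3BP1, G3BP2 and TIAL1 did not pass the test. The test was limma on log2(TPM + 1) over all 11151 genes with at least 1 TPM in 2 or more libraries, with Benjamini-Hochberg adjustment and a threshold of 0.05; all 10 genes were among those tested. That is 7 of 10 genes called (1 higher, 6 lower), where 66.7% of all genes tested were called, 33.8% higher and 32.9% lower, so the share called is near that of the whole table. In 6 of the 10 genes the 4 sgDDX6 libraries did not overlap with the sgNS pair (UBAP2L above it, 5 below it), where 63.4% of all genes tested had no overlap, 31.5% above and 31.9% below. The median log2 fold change of the 10 genes was -0.12, against 0.00084 over all genes tested. The median size without regard to sign was 0.21, against 0.23 over all genes. ATXN2L and PABPC1 stood toward the end of the whole range, with a larger change than theirs in 5.84% and 9.39% of genes tested. For G3BP1 a larger change was seen in 92.9% of genes tested.

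**Figure D1:**
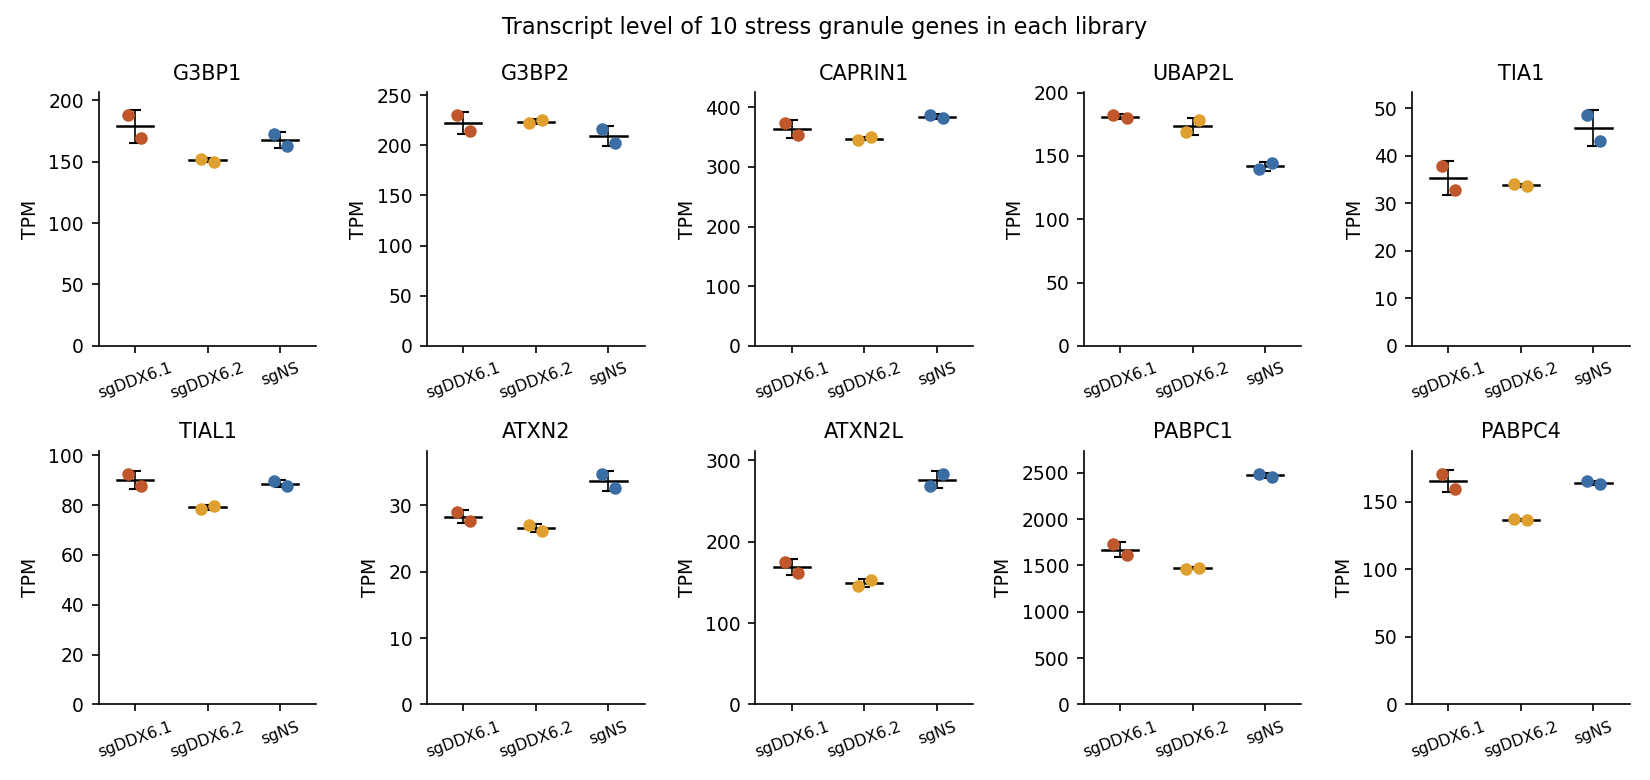
TPM of each of the 10 genes (vertical axes, from 0) in each library; points are libraries, horizontal bars group means and whiskers SD (n = 2), with sgDDX6.1, sgDDX6.2 and sgNS from left to right. ATXN2L and PABPC1 lie far lower in all 4 sgDDX6 libraries than in both sgNS libraries, UBAP2L lies higher, and G3BP2 overlaps between groups.

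The G3BP proteins are the scaffold on which stress granules depend. G3BP1 (chromosome 5, 151771045 to 151812785, GRCh38) had 188 and 169 TPM with sgDDX6.1 and 152 and 150 TPM with sgDDX6.2, against 172 and 163 TPM with sgNS. Its sgDDX6.2 libraries were the lowest of the 6, and those with sgDDX6.1 overlapped with sgNS. The log2 fold change was 0.09 (SE 0.05, limma adjusted p = 0.154) with sgDDX6.1 and -0.15 (SE 0.05, limma adjusted p = 0.0248) with sgDDX6.2. Over both guides it was -0.03 (limma adjusted p = 0.574, 95% interval of -0.13 to 0.07). The call with sgDDX6.2 was lost in 6 of 17 alternative settings, among them the removal of sgDDX6.2 replicate 1 (limma adjusted p = 0.0648), sgDDX6.2 replicate 2 (0.109) or sgNS replicate 1 (0.136); limma adjusted p over all settings ranged from 0.00254 to 0.767.

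G3BP2 (chromosome 4, 75642782 to 75724525), its paralog, had 230 and 214 TPM with sgDDX6.1 and 222 and 225 TPM with sgDDX6.2, against 216 and 202 TPM with sgNS. The highest sgNS library lay above the lowest sgDDX6.1 library, so the groups overlapped. Over both guides G3BP2 stood at 0.09 on the log2 scale (SE 0.04, limma adjusted p = 0.0652, 95% interval without adjustment of 0.0025 to 0.18), with nearly the same value for each guide (0.09 and 0.10, limma adjusted p = 0.127 and 0.0920). This gene lay just outside the threshold and passed it in 5 of 17 alternative settings, including those without sgDDX6.1 replicate 2 (limma adjusted p = 0.0261) and without sgNS replicate 1 (0.0267), over a range of 0.000141 to 0.464. As a pair, the G3BP mRNAs summed to 418 and 384 TPM with sgDDX6.1 and 374 and 375 TPM with sgDDX6.2, against 388 and 365 TPM with sgNS, with overlapping groups. G3BP2 made up 55.1% and 55.9% of this sum with sgDDX6.1, 59.3% and 60.0% with sgDDX6.2, and 55.6% and 55.4% with sgNS, so only the sgDDX6.2 libraries stood apart among the 6.

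CAPRIN1 and UBAP2L, which bind G3BP, moved in opposite directions. CAPRIN1 (chromosome 11, 34051683 to 34101156), a cell-cycle-associated RNA-binding protein, had 374 and 353 TPM with sgDDX6.1 and 346 and 349 TPM with sgDDX6.2, against 387 and 381 TPM with sgNS. All 4 sgDDX6 libraries lay below both sgNS libraries, by a small margin. CAPRIN1 fell by 0.11 on the log2 scale over both guides (SE 0.03, limma adjusted p = 0.0113). This call was lost in 3 of 17 settings, among them limma without a variance trend (limma adjusted p = 0.0634) and both guides as 1 group (0.0960). With sgDDX6.1 alone the value was -0.08 (limma adjusted p = 0.0937) and with sgDDX6.2 -0.14 (limma adjusted p = 0.00655). The sgDDX6.1 value passed the threshold in 3 of 17 settings, which were quantile normalization (-0.15, limma adjusted p = 0.00457), the replicate block (0.0428) and the removal of sgDDX6.1 replicate 1 (-0.12, 0.0231), over a range of 0.00457 to 0.407. The call over both guides was lost without sgNS replicate 1 (limma adjusted p = 0.0739; range over settings 0.000389 to 0.0960), and the call with sgDDX6.2 without replicate 1 of that guide (limma adjusted p = 0.0506; range 0.000302 to 0.0506).

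UBAP2L (chromosome 1, 154220179 to 154271510), an arginine-methylated protein that acts upstream of G3BP in granule assembly, had 182 and 180 TPM with sgDDX6.1 and 169 and 178 TPM with sgDDX6.2, against 139 and 144 TPM with sgNS. The 4 sgDDX6 libraries were all above both sgNS libraries. Mean TPM was 1.28 times the sgNS mean with sgDDX6.1 and 1.22 times with sgDDX6.2. UBAP2L rose by 0.32 on the log2 scale over both guides (SE 0.04, limma adjusted p = 1.33e-05), by 0.35 with sgDDX6.1 and by 0.29 with sgDDX6.2 (limma adjusted p = 2.68e-05 and 0.000108). UBAP2L was the 1 gene of the 10 that rose, and was the fourth by level with either DDX6 guide, against the seventh with sgNS. Its paralog UBAP2, looked up after its value was seen, also rose, by 0.34 (limma adjusted p = 5.24e-05).

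TIA1 and TIAL1 encode closely related proteins with a prion-like tail that silence translation of bound mRNAs and also regulate splicing. TIA1 (chromosome 2, 70209444 to 70248660) had 37.9 and 32.8 TPM with sgDDX6.1 and 34.0 and 33.6 TPM with sgDDX6.2, against 48.6 and 43.1 TPM with sgNS. Every sgDDX6 library was below both sgNS libraries. The sgNS and sgDDX6.1 pairs spread more (SD 3.86 and 3.59 TPM) than the sgDDX6.2 pair (SD 0.283 TPM). TIA1 fell by 0.40 on the log2 scale over both guides (SE 0.06, limma adjusted p = 0.000197), by 0.37 with sgDDX6.1 and by 0.43 with sgDDX6.2 (limma adjusted p = 0.00115 and 0.000382). TIAL1 (chromosome 10, 119571802 to 119597029) had 92.6 and 87.7 TPM with sgDDX6.1 and 78.4 and 79.7 TPM with sgDDX6.2, against 89.5 and 87.5 TPM with sgNS. Here sgDDX6.1 overlapped with sgNS, and sgDDX6.2 was lowest. TIAL1 had a log2 fold change of -0.07 over both guides (limma adjusted p = 0.155, 95% interval of -0.16 to 0.02) and 0.03 with sgDDX6.1 (limma adjusted p = 0.644), and fell by 0.16 with sgDDX6.2 (limma adjusted p = 0.00925). The last call was lost without sgDDX6.2 replicate 1 (-0.15) and without sgNS replicate 1 (-0.15), each of which leaves 1 library in a group. It was also lost after removal of a trend on transcript GC content (-0.07, limma adjusted p = 0.0827). After that removal TIAL1 was called higher with sgDDX6.1 (0.09, limma adjusted p = 0.0448). Over all settings the sgDDX6.2 value ran from -0.18 to -0.07. TIAL1 took 71.0% and 72.8% of the pair's TPM with sgDDX6.1 and 69.7% and 70.3% with sgDDX6.2, against 64.8% and 67.0% with sgNS.

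ATXN2L had the largest log2 fold change of the 10 genes. ATXN2L (chromosome 16, 28823035 to 28837237), the ataxin-2-like protein, had 175 and 162 TPM with sgDDX6.1 and 145 and 152 TPM with sgDDX6.2, against 269 and 284 TPM with sgNS. The lowest sgNS library was far above the highest sgDDX6 library. Mean TPM was 0.61 of the sgNS mean with sgDDX6.1 and 0.539 of it with sgDDX6.2. ATXN2L fell by 0.80 on the log2 scale over both guides (SE 0.04, limma adjusted p = 2.04e-08), by 0.71 with sgDDX6.1 and by 0.89 with sgDDX6.2 (limma adjusted p = 2.74e-07 and 3.37e-08). ATXN2L was the sixth of the 10 by level with either DDX6 guide, where it overlapped with G3BP1, against the third with sgNS, above both G3BPs.

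ATXN2 (chromosome 12, 111443485 to 111599676), the ataxin-2 gene whose CAG repeat expands in a spinocerebellar ataxia, was the least abundant of the 10 in every group. It had 29.01 and 27.6 TPM with sgDDX6.1 and 27.0 and 26.2 TPM with sgDDX6.2, against 34.8 and 32.6 TPM with sgNS. Both sgNS libraries were above all sgDDX6 libraries, and ATXN2 fell by 0.29 on the log2 scale over both guides (SE 0.05, limma adjusted p = 0.000396), by 0.24 with sgDDX6.1 and by 0.33 with sgDDX6.2 (limma adjusted p = 0.00379 and 0.000438). The ataxin-2 pair summed to 204 and 189 TPM with sgDDX6.1 and 172 and 179 TPM with sgDDX6.2, against 304 and 316 TPM with sgNS. The groups were apart, and the sgDDX6 mean was 0.60 of the sgNS mean (exact permutation test, two-sided, p = 0.0667, the smallest that 4 libraries against 2 can give). ATXN2L made up 85.8% and 85.4% of the pair with sgDDX6.1 and 84.3% and 85.4% with sgDDX6.2, against 88.5% and 89.7% with sgNS (exact permutation p = 0.0667). Exons of ATXN2 overlap those of SH2B3 and of an antisense RNA on the opposite strand, and exons of ATXN2L overlap 2 antisense RNAs; whether strand was used in counting is unknown, so reads of these partners cannot be told apart. The same holds for G3BP1 with ATOX1 and PABPC4 with an antisense RNA, and TIA1 shares exonic sequence with C2orf42 on its own strand.

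Cytoplasmic poly(A)-binding proteins join the mRNA tail to the cap complex. PABPC1 (chromosome 8), the main member, ranked 59 among all genes tested by level with sgNS. It had 1728 and 1612 TPM with sgDDX6.1 and 1464 and 1477 TPM with sgDDX6.2, against 2491 and 2454 TPM with sgNS. The groups were widely apart. PABPC1 fell by 0.66 on the log2 scale over both guides (SE 0.03, limma adjusted p = 8.00e-09), by 0.57 with sgDDX6.1 and by 0.75 with sgDDX6.2 (limma adjusted p = 1.52e-07 and 1.06e-08). Reads matching several loci are apportioned by RSEM, and GENCODE release 29 names 13 pseudogenes of PABPC1, so its level is less certain than that of the others, for which it names none.

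PABPC4 (chromosome 1, 39560816 to 39576790), first found in activated T cells and platelets, had 171 and 160 TPM with sgDDX6.1 and 137 and 136 TPM with sgDDX6.2, against 165 and 163 TPM with sgNS. The sgDDX6.1 libraries lay on both sides of the sgNS pair, and the sgDDX6.2 libraries lay below it. Its change was 0.01 with sgDDX6.1 (limma adjusted p = 0.883, 95% interval of -0.09 to 0.10) and -0.26 with sgDDX6.2 (limma adjusted p = 0.000269). The call over both guides (-0.13, limma adjusted p = 0.0110) thus averages unequal values, and it was lost without sgNS replicate 1 (limma adjusted p = 0.0639; range over settings 0.000986 to 0.312). With both guides as 1 group the call was lost as well (limma adjusted p = 0.312). PABPC4 took 9.01% of the pair's TPM in each sgDDX6.1 library and 8.57% and 8.45% with sgDDX6.2, against 6.22% and 6.24% with sgNS (exact permutation p = 0.0667). PABPC4 itself averaged 165 ± 8.10 TPM with sgDDX6.1 and 137 ± 0.665 TPM with sgDDX6.2, against 164 ± 1.53 TPM with sgNS (SD, n = 2 each), while PABPC1 fell.

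**Figure D2:**
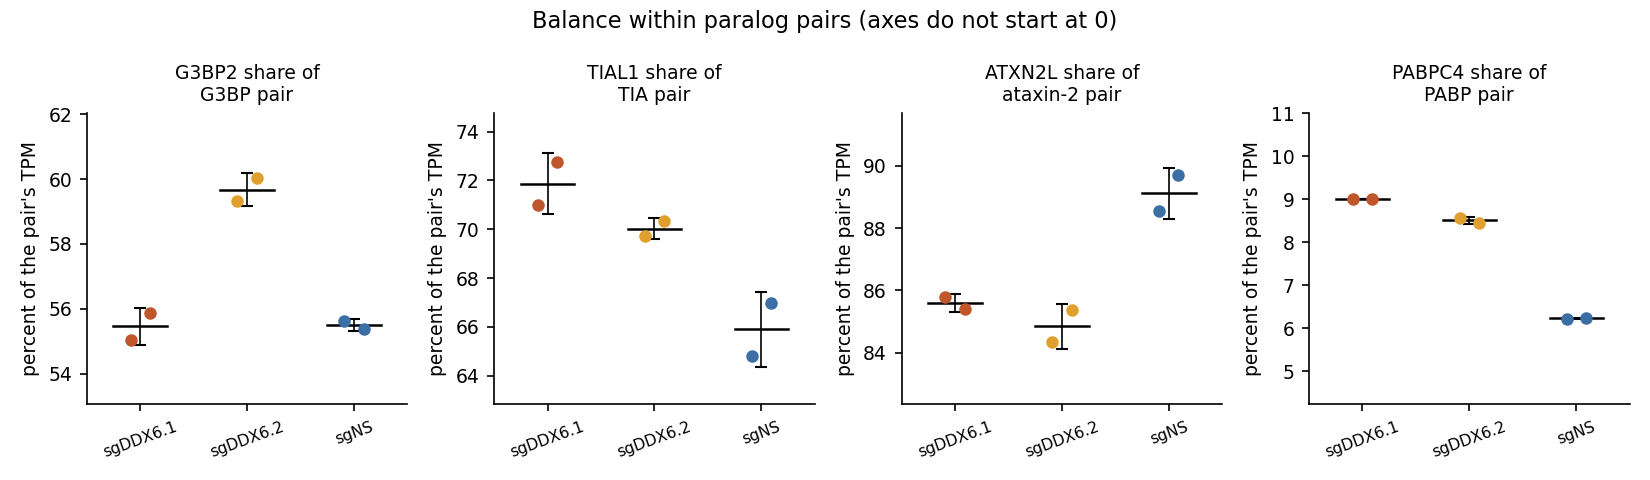
Share of each pair's summed TPM taken by the named member (vertical axes in percent, not starting at 0) in each library, with group means and SD (n = 2). The PABPC4 and TIAL1 shares are higher and the ATXN2L share lower in all 4 sgDDX6 libraries than in both sgNS libraries, and the G3BP2 share is higher with sgDDX6.2 only.

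Together the 10 mRNAs took 0.321% and 0.300% of all TPM with sgDDX6.1 and 0.277% and 0.281% with sgDDX6.2, against 0.401% and 0.395% with sgNS. PABPC1 accounted for most of the difference. The other 9 genes summed to 1480 and 1385 TPM with sgDDX6.1 and 1310 and 1331 TPM with sgDDX6.2, against 1521 and 1501 TPM with sgNS, a ratio of 0.911 between the sgDDX6 and sgNS means (exact permutation p = 0.133). In each group PABPC1 came first in level per length and CAPRIN1 second, and TIAL1, TIA1 and ATXN2 came last in that order, with no overlap between these neighbours. With sgNS, G3BP1 and PABPC4 overlapped. With sgDDX6.1, UBAP2L, G3BP1, ATXN2L and PABPC4 overlapped from neighbour to neighbour, and with sgDDX6.2 only G3BP1 and ATXN2L did.

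With sgDDX6.1 alone, 5 of the 10 genes were called, UBAP2L higher and TIA1, ATXN2, ATXN2L and PABPC1 lower, where 61.6% of all genes tested were called, 31.8% higher and 29.7% lower. With sgDDX6.2 alone, 9 were called, UBAP2L higher and 8 lower, where 64.2% of genes were called, 31.5% higher and 32.7% lower. G3BP2 was the exception. These comparisons share the sgNS libraries. Without sgDDX6.2 replicate 1, which leaves 1 library of that guide, the calls for G3BP1, CAPRIN1 and TIAL1 were lost. Their values were then -0.16, -0.14 and -0.15.

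The difference between the guides was tested directly. Of the 10 genes, 5 were lower with sgDDX6.2 than with sgDDX6.1 and none was higher, where 35.6% of all genes tested were called, 18.6% lower and 17.0% higher. No set test was made, so the 5 of 10 beside 18.6% is a description. Each of the 10 genes was also higher in sgDDX6.1 replicate 1 than in sgDDX6.1 replicate 2, with sums of 3208 and 2997 TPM. The 5 calls may thus not be separate observations. PABPC4 differed most, by -0.27 (SE 0.04, limma adjusted p = 0.000866), followed by G3BP1 with -0.24 (SE 0.05, limma adjusted p = 0.00469). TIAL1 differed by -0.19, PABPC1 by -0.18 and ATXN2L by -0.18 (limma adjusted p = 0.00933, 0.00297 and 0.0175). Of these, the calls for TIAL1 and ATXN2L were lost without sgDDX6.1 replicate 1 and without sgDDX6.2 replicate 1, each of which leaves 1 library of a guide. The log2 differences were then -0.15 and -0.18 for TIAL1, and -0.12 and -0.14 for ATXN2L. That of ATXN2L was also lost without the filter (limma adjusted p = 0.0729) and without a variance trend (0.0739). Over all settings the difference ran from -0.23 to -0.15 for TIAL1 and from -0.26 to -0.12 for ATXN2L. The other 5 genes were not called, with log2 differences of -0.09 to 0.01; for UBAP2L the 95% interval was -0.16 to 0.03 and for G3BP2 -0.09 to 0.11. The mRNA of DDX6 itself differed between the guides by -0.01 (limma adjusted p = 0.918).

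**Figure D3:**
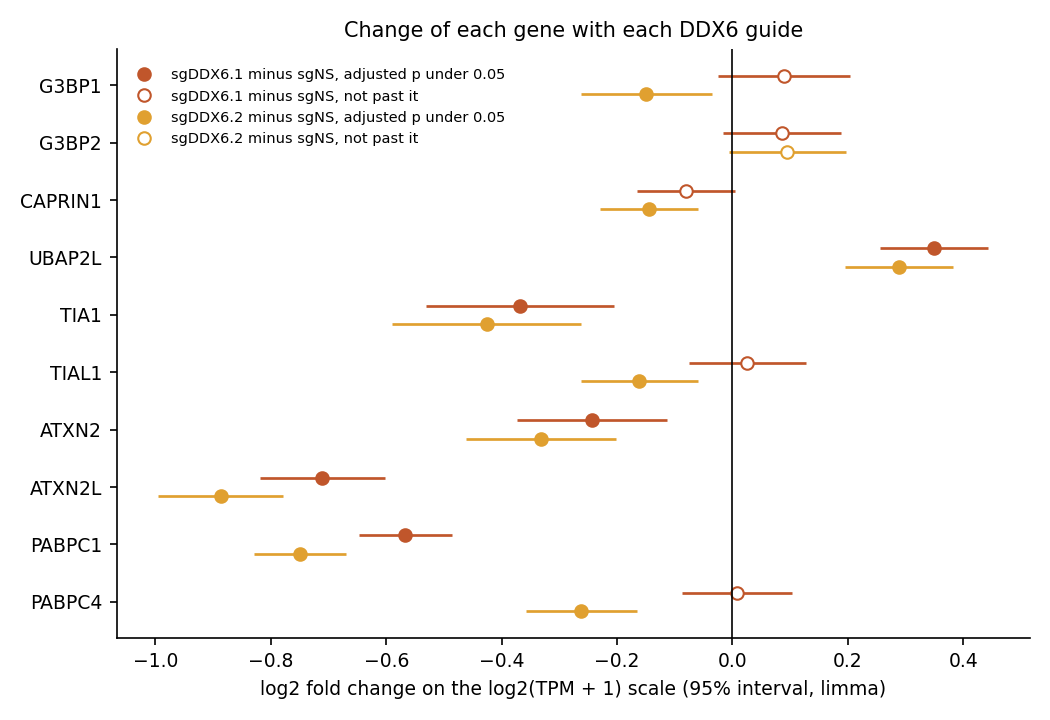
Log2 fold change against sgNS on the log2(TPM + 1) scale (horizontal axis) for each gene with sgDDX6.1 and sgDDX6.2; lines are 95% intervals from limma without adjustment, filled points have an adjusted p under 0.05. ATXN2L and PABPC1 lie farthest to the left with both guides, UBAP2L alone is filled to the right of 0, and G3BP1, CAPRIN1, TIAL1 and PABPC4 are filled with sgDDX6.2 only.

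The sequence before the transcript start is shown for ATXN2L and TIA1, which fell, and for UBAP2L, which rose. RefSeq promoter windows (GRCh38.p14) were given for 7 of the 10 genes, not for ATXN2, PABPC1 or PABPC4. Each run below holds the 200 bases before the first start listed, 5′ to 3′ on the gene's strand, at chr16:28822799-28822998 (plus strand) for ATXN2L, chr2:70248794-70248993 (minus strand) for TIA1 and chr1:154220649-154220848 (plus strand) for UBAP2L. Capitals mark the motifs found.
ATXN2L: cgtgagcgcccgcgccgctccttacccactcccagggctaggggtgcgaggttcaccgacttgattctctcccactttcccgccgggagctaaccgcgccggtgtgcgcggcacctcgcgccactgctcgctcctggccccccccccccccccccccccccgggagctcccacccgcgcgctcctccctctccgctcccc
TIA1: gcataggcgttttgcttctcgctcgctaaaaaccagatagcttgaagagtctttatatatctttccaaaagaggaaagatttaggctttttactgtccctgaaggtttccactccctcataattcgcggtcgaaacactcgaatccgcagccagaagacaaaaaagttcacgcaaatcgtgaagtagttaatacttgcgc
UBAP2L: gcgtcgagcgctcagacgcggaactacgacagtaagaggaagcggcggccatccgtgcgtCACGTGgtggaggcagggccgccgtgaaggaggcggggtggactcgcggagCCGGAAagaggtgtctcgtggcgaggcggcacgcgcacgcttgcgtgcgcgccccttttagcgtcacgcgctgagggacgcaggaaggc
Both strands were searched for 6 motifs, none of which overlaps another in the windows shown. The E-box is spelled CACGTG and was present in 5.49% of 35116 windows of this length. The ETS core is spelled CCGGAA and was present in 12.89% of them. The CCAAT box was present in 28.03%. The GC box is spelled GGGCGG and was present in 40.1%. The core of the ATF4 composite site is spelled TGATGCAA and was present in 0.64%. The YY1 core is spelled ATGGCGG and was present in 2.34%. The UBAP2L window shown held 1 E-box and 1 ETS core, and the windows shown for ATXN2L and TIA1 held none of the 6. This holds for the first start only. The window of TIA1 start 2, not shown, held 1 GC box. Those of UBAP2L starts 2 and 3 held 2 and 1 GC boxes, and start 2 also 1 E-box and 1 ETS core. The window of start 2 (chr1:154220755-154220954) overlaps that of start 1, and the ETS core is the same letters in both. Neither the ATF4 nor the YY1 core was in any of the 14 windows of the 7 genes, and the CCAAT box occurred 3 times before G3BP1. A match is a description of letters and not a binding site.

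Transcript composition differs among the 10. In GENCODE release 29 (GRCh38), the GC content of the transcript chosen per gene was 36.6% for TIA1, 38.3% for G3BP1, 41.9% for G3BP2, 42.5% for TIAL1 and 44.6% for CAPRIN1. It was 51.1% for PABPC1, 52.0% for UBAP2L, 52.2% for ATXN2, 53.6% for PABPC4 and 60.1% for ATXN2L, around a median of 48.9% over genes tested. Thus the U-rich-RNA binders, the G3BPs and CAPRIN1 have GC-poor mRNAs, and the ataxin-2, PABP and UBAP2L mRNAs are richer than the median. The 3′ untranslated region was 8697 nt for G3BP1 and 3278 nt for TIA1, against 231 nt for TIAL1 and 323 nt for PABPC4, with a median of 1056 nt over genes tested. Over 10849 genes tested with a value, the Spearman correlation of GC content with the log2 fold change was 0.24 over both guides, and 0.19 for sgDDX6.2 minus sgDDX6.1; the points share the 6 libraries. After a loess trend on GC content was removed from each library, a step chosen after the data were seen, ATXN2L had a log2 fold change of -0.88, PABPC1 -0.68, ATXN2 -0.32, TIA1 -0.23 and UBAP2L 0.29, all with the same sign and call as before. TIA1 was then nearer to 0 than its -0.40 before. G3BP1 changed sign and passed the threshold over both guides (0.11, limma adjusted p = 0.00450; range over settings 0.00450 to 0.901), and G3BP2 passed it too (0.17, limma adjusted p = 0.000141). Between the guides, the 5 genes called lower with sgDDX6.2 were still called, at -0.16 to -0.30.

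**Figure D4:**
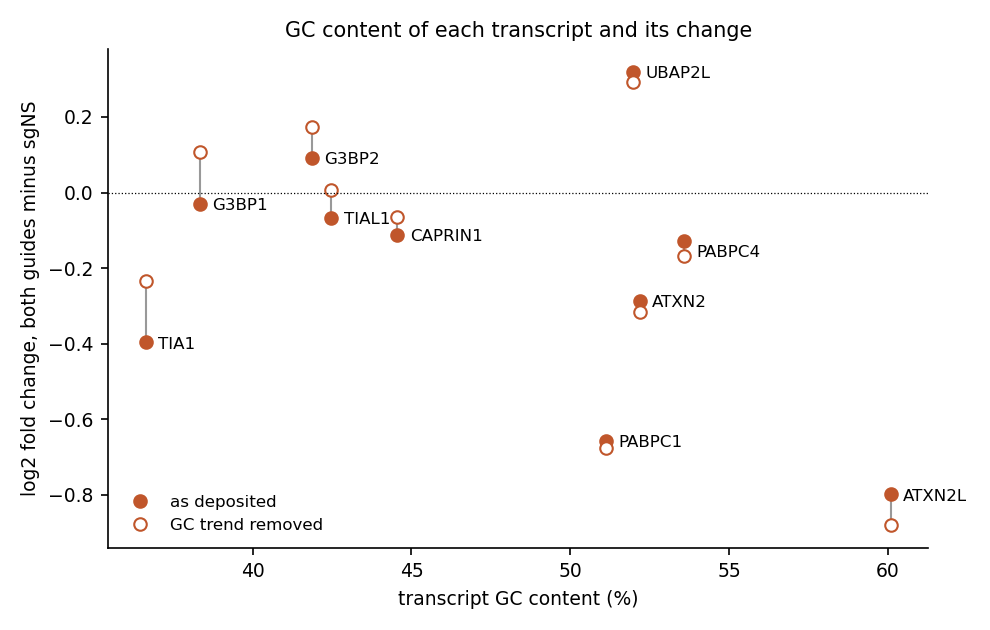
Log2 fold change over both guides against sgNS (vertical axis) and GC content of the chosen transcript (horizontal axis, percent) for the 10 genes, as deposited (filled) and after removal of a loess trend on GC content (open). The GC-poor G3BP1, G3BP2 and TIA1 move up after the removal, and ATXN2L, the richest at 60.1%, moves down.

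The genes nearest in pattern were found by distance over the 6 libraries, on the log2(TPM + 1) scale relative to each gene's own sgNS mean. Nearest to UBAP2L were MGAT1, which starts complex N-glycans, PPP1R9B, GPATCH3, the splicing factor U2AF2 and LAMTOR2, at distances of 0.0324 to 0.0519. Nearest to ATXN2L were the zinc transporter SLC39A14, C19orf54, the mitochondrial iron carrier SLC25A37, RNF44 and LETMD1, at 0.0961 to 0.103. U2AF2, for example, had 245 and 240 TPM with sgDDX6.1 and 222 and 238 TPM with sgDDX6.2, against 183 and 189 TPM with sgNS.

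Other stress granule genes were taken from a list of 48 partners and clients. Of 44 tested, 20 fell and 10 rose over both guides, where 32.9% of all genes tested fell and 33.8% rose, so the share called is near that of the whole table. The list's median was -0.06, against 0.00084 over all genes. TRIM25, a ubiquitin ligase that binds RNA, fell by 0.95 and had 58.5 and 57.1 TPM with sgDDX6.1 and 58.3 and 58.2 TPM with sgDDX6.2, against 113 and 114 TPM with sgNS. CIRBP, a cold-inducible RNA-binding protein, fell by 0.52, TAF15 fell by 0.34 and RTCB, the tRNA ligase, rose by 0.39 (limma adjusted p = 7.78e-07, 4.54e-06 and 3.90e-06). USP10, the other well-known G3BP partner and looked up after its value was seen, was at 0.02 (limma adjusted p = 0.711).

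Regulators of granule formation and clearance, kinases of eIF2, chaperones and modifying enzymes among them, were called in both directions, with 11 of 24 higher and 11 lower (median 0.01), where 33.8% of all genes tested were higher and 32.9% lower. HSPA8, the constitutive HSP70 that acts in granule disassembly, had 2198 and 2172 TPM with sgDDX6.1 and 1980 and 1989 TPM with sgDDX6.2, against 768 and 755 TPM with sgNS, a rise of 1.45 (limma adjusted p = 1.61e-12). The small heat shock protein HSPB1 rose by 1.41 (limma adjusted p = 1.46e-11). It had 724 and 740 TPM with sgDDX6.1 and 1098 and 1146 TPM with sgDDX6.2, against 331 and 349 TPM with sgNS. HSPA1A, which shares reads with a near-identical copy and is uncertain, rose by 0.61, and PPP1R15A, which directs dephosphorylation of eIF2, fell by 0.62 (limma adjusted p = 5.11e-08 and 7.48e-08).

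Of 19 tested genes among other PABPs and PABP cofactors, 9 fell and 4 rose (median -0.12), where 32.9% of all genes tested fell and 33.8% rose, a share called near that of the whole table. EIF4G1, the cap-complex scaffold that PABPC1 binds, rose by 0.36 and had 466 and 449 TPM with sgDDX6.1 and 425 and 430 TPM with sgDDX6.2, against 340 and 349 TPM with sgNS. LARP1, which binds TOP mRNAs and PABP, fell by 0.28, PAN3 of the PABP-dependent deadenylase by 0.35 and the nuclear PABPN1 by 0.28 (limma adjusted p = 3.18e-05, 3.28e-05 and 0.000431); exons of PABPN1 are also part of a readthrough gene in the table, which can share its reads. Without sgNS replicate 1, 5 of these genes fell, and without sgNS replicate 2, 2 rose. The call for LARP1 was lost when the 4 sgDDX6 libraries were treated as 1 group (limma adjusted p = 0.0983; range over settings 1.49e-06 to 0.0983). LARP1 stood at -0.09 with sgDDX6.1, where it was not called, and at -0.46 with sgDDX6.2 (limma adjusted p = 0.0687 and 1.79e-06). The guides differed by -0.37 (limma adjusted p = 8.40e-05), so its value over both guides averages unequal values. PABPC3, PABPC5 and PABPC4L did not reach the level needed for the test.

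PABPC1 mRNA belongs to the TOP class, whose 5′ end starts with a run of pyrimidines and which also holds the ribosomal protein mRNAs. Of 21 tested TOP mRNAs outside the ribosomal proteins, 18 fell and 2 rose, with a median of -0.42, and of 79 cytosolic ribosomal protein genes 74 fell and 2 rose, with a median of -0.34. Over all genes tested, 32.9% fell and 33.8% rose. EEF1A1 of translation elongation fell by 0.59, EEF2 by 0.73, EEF1B2 by 0.51 and TPT1 by 0.59, beside -0.66 for PABPC1 (limma adjusted p = 1.89e-09, 3.78e-09, 2.57e-08 and 2.88e-08 for the 4). RPS27 fell by 0.52, RPL26 by 0.61 and RPS15A by 0.49, while RPS26 rose by 0.92 (limma adjusted p = 5.55e-09, 6.77e-09, 1.94e-08 and 3.20e-10). Ribosomal protein genes took between 18.2% and 19.3% of all TPM in the sgDDX6 libraries, against 23.7% and 23.8% in the sgNS libraries; TPM are shares of a fixed total, and its part in the other values was not tested. Of 28 initiation factors, which share 7 genes with the TOP list, 13 fell and 8 rose (median -0.06), where 66.7% of all genes tested were called in either direction, with EIF1 at -0.70, EIF2S2 at -0.68, EIF4B at -0.54 and EIF5 at 0.61 (limma adjusted p = 3.98e-09, 1.03e-08, 3.83e-08 and 5.10e-08). Of 9 tested partners of DDX6, 3 fell and 1 rose (median 0.0046), where 66.7% of all genes tested were called. EDC4 rose by 0.31, while DCP1A fell by 0.27, PATL1 by 0.14 and XRN1 by 0.21 (limma adjusted p = 0.000227, 0.000488, 0.00885 and 0.0103). The PATL1 call was lost without sgNS replicate 2 (limma adjusted p = 0.0735) and with both guides as 1 group (0.0525), over a range of 0.00174 to 0.0735. That of XRN1 was lost without sgNS replicate 1 (limma adjusted p = 0.0837) and with the GC trend removed, where its value was -0.06 (0.265), over a range of 0.00262 to 0.265.

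**Figure D5:**
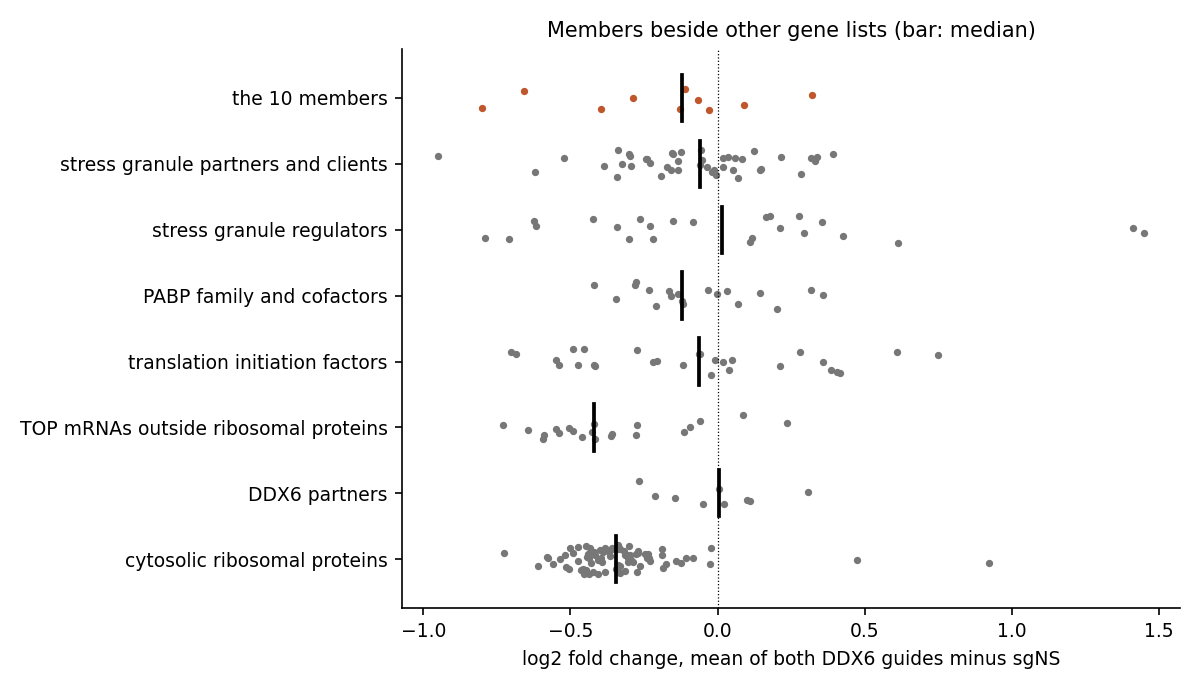
Log2 fold change over both guides against sgNS (horizontal axis) of the 10 genes and of the tested genes of each other list; each point is a gene, the bar the list's median, and vertical scatter within a row has no meaning. The medians of the TOP mRNAs (-0.42) and ribosomal proteins (-0.34) lie left of that of the 10 genes (-0.12), and 2 regulators, HSPA8 and HSPB1, lie farthest right.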

How the data were processed

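Expression was measured in 6 libraries of poly(A)+ RNA from Mono-mac-6 cells. The table the authors deposited holds TPM with 2 decimals, made with RSEM 1.2.31 and GRCh38 per the submitters' processing notes. Aligner and annotation: not given in the sources used here. Every column summed to about 1000000, so values are shares of a library of unknown depth, and nothing that needs read counts was computed. Groups came from the labels.

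Genes with at least 1 TPM in 2 or more libraries (11151) were fitted as log2(TPM + 1) with limma 3.58.1 in R 4.3.3, with 3 group means, a variance trend and 3 residual degrees of freedom. Fold changes are on the log2(TPM + 1) scale and are too small for low genes. The contrasts were both guides or a single guide against sgNS, and one guide against the other (sgDDX6.2 minus sgDDX6.1), two-sided, with Benjamini-Hochberg adjustment over all genes at 0.05. The procedure was tested on simulated data. Sums and shares of paralog pairs were compared with exact permutation tests, which cannot go below 0.0667. Of 18806 symbols, 18298 were matched to GENCODE release 29; per gene, 1 principal coding transcript was used. The genes, lists, alternatives and naming rule were chosen with earlier results of these data known. Besides DDX6 and the 10 genes, up to 4 genes per list with a mean TPM of at least 5 and the lowest adjusted p are named, and the 5 genes nearest to the members with the largest rise and fall; UBAP2 and USP10 were added after their values were seen. Alternatives were pseudocounts of 0.1 and 5, no filter or a filter at 5 TPM, quantile normalization, median centring, limma without trend or robust, a replicate block, only the groups compared, both guides as 1 group, leaving out each library, and, added later, removal of a GC trend.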

Additional observations from a re-analysis of the deposited data

Results flagged for a closer look

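For 5 of the 10 genes the change against sgNS differed between the guides, by the limma contrast of sgDDX6.2 minus sgDDX6.1 adjusted over all genes tested. The difference was -0.24 for G3BP1, -0.19 for TIAL1, -0.18 for ATXN2L, -0.18 for PABPC1 and -0.27 for PABPC4 on the log2(TPM + 1) scale. All 5 were lower in both sgDDX6.2 libraries than in both sgDDX6.1 libraries. Of all genes tested, 35.6% were called in this contrast.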

How the results depend on the processing

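Over 17 alternative settings for each contrast with sgNS, UBAP2L, TIA1, ATXN2, ATXN2L and PABPC1 kept sign and call; over both guides the ranges were 0.26 to 0.34, -0.48 to -0.23, -0.33 to -0.24, -0.88 to -0.76 and -0.68 to -0.58. Of the 10 genes, those called higher over both guides numbered 2 with median centring or the replicate block and 3 with the GC trend removed. With sgDDX6.1 they numbered 3 with the block and 4 with the GC trend removed, and with sgDDX6.2 they numbered 2 under median centring, the block or the GC removal. The GC removal turned G3BP1 to 0.11 (both guides) and 0.011 (sgDDX6.2), TIAL1 to 0.0068 (both guides) and PABPC4 to -0.018 (sgDDX6.1). Quantile normalization turned TIAL1 to -0.0081 and PABPC4 to -0.056 (sgDDX6.1) and the log2 ratio of the G3BP sum to -0.015. It moved that of the PABP sum to -0.54 and the gain in PABPC4 share to 1.90 percentage points. TOP mRNAs called higher numbered 1 without the filter, with quantile normalization, median centring, no variance trend or both guides as 1 group. DDX6 partners called higher numbered 3 with quantile normalization and 2 with median centring, the block or the GC removal. With both guides as 1 group, 5 partners and clients were higher and 5 PABP cofactors lower. Without the filter 19.2% of genes differed between the guides. The causes were not tested.

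Leaving out each library in turn gave 1 to 2 genes higher over both guides, 1 to 3 with sgDDX6.1 (3 without sgDDX6.1 replicate 2), 1 to 2 with sgDDX6.2, 5 to 8 lower with sgDDX6.2 and 3 to 5 lower between the guides. Genes differing between the guides ran from 20.3% (without sgDDX6.2 replicate 1) to 37.4%. PABP cofactors ran from 2 to 4 higher and 5 to 10 lower, and TOP mRNAs from 1 to 2 higher. The log2 ratio of the G3BP sum ran from -0.00199 to 0.085, the gain in G3BP2 share from 1.23 to 2.90 and that in PABPC4 share from 2.45 to 2.63 percentage points. Values that changed sign ran, over both guides, from -0.069 to 0.0091 for G3BP1; with sgDDX6.1 from -0.014 to 0.065 for TIAL1 and from -0.042 to 0.058 for PABPC4; and between the guides from -0.16 to 0.043 for TIA1 and from -0.042 to 0.060 for G3BP2. Replicate numbers were not taken to pair libraries. The correlations of replicate 1 minus replicate 2 between groups were 0.04, 0.26 (sgDDX6.1 with sgNS) and 0.10, which do not settle that choice. With the replicate block, G3BP1, G3BP2 and CAPRIN1 passed the threshold with sgDDX6.1 (limma adjusted p = 0.0475, 0.0498 and 0.0428), so these calls depend on it. Only 2 libraries a group limit all precision.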
